A study of Drosophila melanogaster with 2 samples.

Results

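The 42 genes described here are genes of DNA replication and the cell cycle in Drosophila melanogaster, taken from a named list rather than by a threshold on a measured value, though the list was drawn up with earlier results of these data known. They were 42 of the 13968 protein-coding genes of the annotation, and all 42 were found by symbol. They fell into 17 replication factors, 8 cyclins with their kinases, 7 regulators of the cycle (phosphatases, an inhibitor, and the E2F and Rb proteins) and 10 mitotic regulators. The measurement was chromatin immunoprecipitation with sequencing (ChIP-seq) for Nemo, a protein kinase encoded by nmo. The chromatin came from whole embryos of both sexes, collected over 0 to 24 h, from a transgenic fly line that stably carries Nemo with green fluorescent protein at its C-terminus, and it was precipitated through that tag. The series has 1 group of 2 samples, biological replicates 2 and 3. All embryos carried the fusion, no untagged or input sample was analysed here, and an embryo collection of this breadth mixes every tissue and stage of embryogenesis.

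Before S phase, the origin recognition complex, Cdc6 and Dup (the fly Cdt1) load the MCM helicase at origins, and Geminin blocks further loading within the same cycle. Cyclin-dependent kinases drive entry into S phase and mitosis, String (a Cdc25 phosphatase) releases them from inhibition, and E2F with its partner Dp, held back by Rb proteins, drives transcription of many replication genes. In fly embryos the first divisions run on maternal products, and the later ones depend on zygotic transcription, above all of string.

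The authors deposited a peak list for each replicate, one for the pool of both, and a shorter one kept at a threshold of IDR (irreproducible discovery rate), which scores whether a peak's rank recurs from one replicate to the other. The lists of each replicate and of the pool hold 30000 peaks and the IDR list holds 9299, which are the 9299 strongest of the pooled list. Each peak has a summit and a signal value, the authors' measure of enrichment, which has no absolute unit and is set side by side only within a list. It ran between 166 and 7478 in the IDR list. The deposited −log10 q-value was at its ceiling of 4.27 for the strongest promoter summit of every member with an IDR summit except stg (3.79). Read depth was unknown. Summits within 1000 bp of any transcription start site (TSS) of a gene were assigned to it, so that a summit can belong to several genes.

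Sequences are shown first for 5 strong sites, to show what DNA lay under them. Coordinates are on dm6, and the sequence was read from the RefSeq copy of the genome on the strand of the named gene, up to 100 bp on either side of the summit and stopped at the first exon reached on either side. The windows were chr3R:8264657-8264857, plus strand for Mcm2, chr2L:15747007-15747207, minus strand for CycE, chr2L:10386383-10386583, minus strand for Cdk1, chr3R:11962908-11963108, plus strand for aurA and chr3L:7903840-7904040, minus strand for pbl. None held any of the motifs TATCGATA, GGTCACAC or the E2F words described below, and all were rich in A and T, with a GC content of 24.9%, 17.4%, 26.9%, 25.4% and 30.3% in that order. These are not the 5 strongest sites, since those of RnrS (1790), tum (1359) and Dp (904) are left out. Of these, the tum window held GGTCACAC on either strand, and those of RnrS and Dp held none of these motifs.
Mcm2: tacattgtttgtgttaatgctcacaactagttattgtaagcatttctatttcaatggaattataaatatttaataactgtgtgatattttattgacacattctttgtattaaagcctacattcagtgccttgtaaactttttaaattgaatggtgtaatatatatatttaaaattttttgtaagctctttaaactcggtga
CycE: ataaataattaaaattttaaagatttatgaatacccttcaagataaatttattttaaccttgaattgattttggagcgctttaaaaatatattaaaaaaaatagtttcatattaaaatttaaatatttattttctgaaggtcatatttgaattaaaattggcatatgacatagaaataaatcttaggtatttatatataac
Cdk1: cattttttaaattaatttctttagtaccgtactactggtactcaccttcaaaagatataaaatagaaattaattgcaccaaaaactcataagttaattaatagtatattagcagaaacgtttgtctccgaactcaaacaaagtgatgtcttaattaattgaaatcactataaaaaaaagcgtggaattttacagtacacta
aurA: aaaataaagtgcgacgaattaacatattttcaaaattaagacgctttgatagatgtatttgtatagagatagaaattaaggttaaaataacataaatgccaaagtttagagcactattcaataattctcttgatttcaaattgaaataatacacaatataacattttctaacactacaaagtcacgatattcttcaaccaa
pbl: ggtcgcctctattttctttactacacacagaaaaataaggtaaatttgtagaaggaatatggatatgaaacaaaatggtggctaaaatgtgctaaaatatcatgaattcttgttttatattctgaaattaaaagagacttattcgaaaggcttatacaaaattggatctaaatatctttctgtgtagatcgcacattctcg

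A second set is shown because it carries core promoter words, in capitals. Capitals mark the DNA replication-related element (DRE, TATCGATA), the binding word of the transcription factor DREF, in Orc2 (chr3R:13964588-13964788, plus strand), Orc5 (chr2L:13829742-13829836, plus strand), Cdk2 (chr3R:20735488-20735622, plus strand) and mad2 (chr3L:5813094-5813274, minus strand). They mark the core of Motif 1 (GGTCACAC, or GTGTGACC on the other strand), a word common in promoters of housekeeping genes, in CycB3 (chr3R:24870817-24870969, minus strand) and Rbf (chrX:801480-801633, minus strand). The words began 4, 17 and 26 bp upstream of the summit in Orc2, Orc5 and Cdk2 and 26 bp downstream of it in mad2. The Motif 1 cores began 3 bp upstream of the summit in CycB3 and 5 bp downstream of it in Rbf.
Orc2: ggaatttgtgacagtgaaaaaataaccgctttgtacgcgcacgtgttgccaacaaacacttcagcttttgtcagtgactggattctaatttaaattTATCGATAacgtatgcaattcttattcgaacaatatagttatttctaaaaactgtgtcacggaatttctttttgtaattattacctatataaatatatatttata
Orc5: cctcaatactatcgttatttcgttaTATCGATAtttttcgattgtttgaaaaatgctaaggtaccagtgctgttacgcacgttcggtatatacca
Cdk2: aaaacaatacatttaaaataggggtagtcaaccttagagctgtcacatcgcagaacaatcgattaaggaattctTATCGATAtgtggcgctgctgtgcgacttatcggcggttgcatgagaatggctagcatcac
mad2: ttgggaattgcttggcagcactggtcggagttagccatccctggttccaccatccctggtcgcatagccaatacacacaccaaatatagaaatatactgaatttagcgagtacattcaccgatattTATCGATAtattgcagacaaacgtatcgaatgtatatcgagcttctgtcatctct
CycB3: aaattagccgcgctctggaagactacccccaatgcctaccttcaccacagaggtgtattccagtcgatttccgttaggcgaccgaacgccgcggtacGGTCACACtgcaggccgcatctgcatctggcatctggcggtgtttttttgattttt
Rbf: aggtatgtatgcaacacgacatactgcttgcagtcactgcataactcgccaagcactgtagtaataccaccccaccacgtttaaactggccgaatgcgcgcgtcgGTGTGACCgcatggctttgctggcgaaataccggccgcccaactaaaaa

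A last pair is shown because these replication genes had only weak peaks within 1000 bp of a TSS. Those peaks were in the pooled list but not in the IDR list. The Mcm3 window (chrX:5323693-5323854, plus strand) held a Motif 1 core, in capitals, and the RnrL window (chr2L:10327967-10328167, minus strand) held neither TATCGATA, GGTCACAC nor an E2F word.
Mcm3: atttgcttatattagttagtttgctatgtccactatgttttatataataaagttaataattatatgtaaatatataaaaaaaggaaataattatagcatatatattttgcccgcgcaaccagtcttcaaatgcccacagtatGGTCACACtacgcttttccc
RnrL: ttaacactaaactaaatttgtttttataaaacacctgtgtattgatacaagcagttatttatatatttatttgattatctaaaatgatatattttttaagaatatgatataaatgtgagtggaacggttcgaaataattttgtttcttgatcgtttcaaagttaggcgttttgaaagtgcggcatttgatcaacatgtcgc

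Of the 42 genes, 38 (90.5%) had an IDR summit near a TSS, against 43.8% of all protein-coding genes. All 8 cyclins and kinases and all 10 mitotic regulators had one. So did 14 of 17 replication factors (82.4%) and 6 of 7 cycle regulators (85.7%). The 4 genes without one were the MCM subunit Mcm3, the origin recognition subunit Orc6, the large ribonucleotide reductase subunit RnrL, and twe, a Cdc25 phosphatase of meiosis and the early embryo. In the pooled list all 42 genes had a summit, against 61.8% of all genes.

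The share held in each replicate by itself. Among the 9299 strongest peaks of replicate 3, 36 of the 42 genes (85.7%) had a summit near a TSS, against 42.3% of all genes. Among the 9299 strongest of replicate 2 it was 37 (88.1%), against 44.7% of all genes. Cdc6 and stg had no summit among the replicate 3 peaks, and Mcm6 and Orc1 had none among the replicate 2 peaks, where twe had one. All cyclins, kinases and mitotic regulators had a summit in both.

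**Figure D1:**
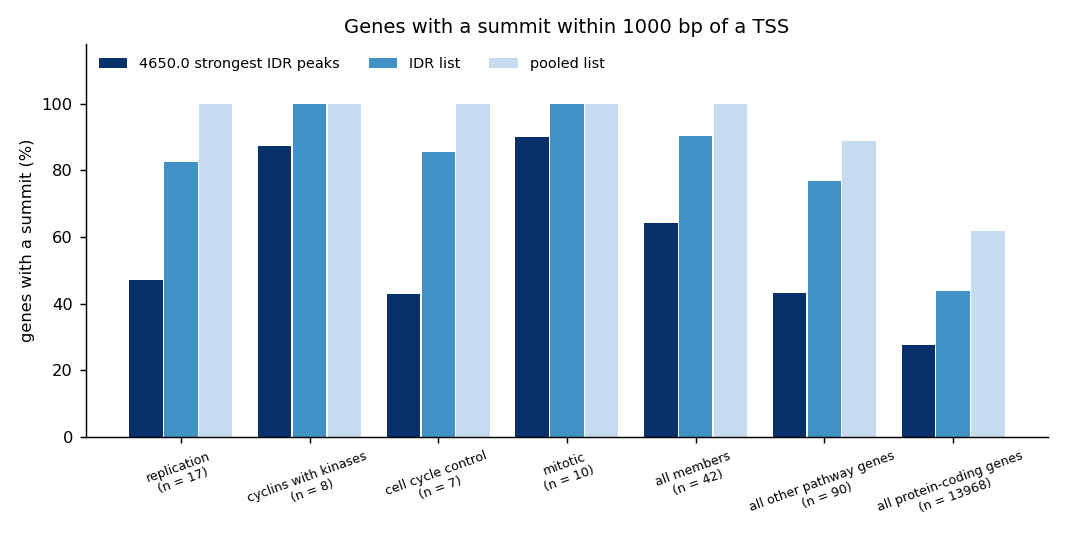
Percent of genes with a summit within 1000 bp of a TSS (vertical axis), by class and, at the right, for 90 other pathway genes and for all 13968 protein-coding genes. Dark, middle and pale bars stand for the 4650 strongest IDR peaks, the whole IDR list and the pooled list. The cyclins with kinases (87.5%) and the mitotic class (90%) keep high dark bars, and the replication class (47.1%) does not.

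With the bar set higher, the classes separated more. Among the 4650 strongest IDR peaks, 27 of the 42 genes (64.3%) had a summit near a TSS, against 27.5% of all genes. These were 9 of 10 mitotic regulators, 7 of 8 cyclins and kinases, 8 of 17 replication factors and 3 of 7 cycle regulators. The differences between the classes were not tested. The other pathway genes, described last, did not keep this order. There the share was 31% of other replication genes, 57.1% of other cycle regulators and 45% of other mitotic genes.

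Many cell cycle genes lie close to a divergently transcribed neighbour, and such genes had summits more often throughout the genome. A gene was called head-to-head when its TSS faced away from that of another coding gene on the other strand within 1000 bp. That held for 22 of the 42 genes (52.4%), against 36.2% of all genes. Of these 22, 21 (95.5%, all but twe) had an IDR summit, against 73% of all head-to-head genes. Of the other 20, 17 (85%, all but Mcm3, Orc6 and RnrL) had one, against 27.3% of all genes without such a neighbour.

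Although summits were common at these genes, they were not unusually strong. The median signal value of the strongest summit near a TSS was 385 over the 38 genes and 407 over all 6122 protein-coding genes with one, and 18 of the 38 lay above the value of all genes. The mitotic class had the highest median, 536, with 7 of 10 genes above the 407 of all genes. The medians were 370 for cyclins with kinases (3 of 8 above), 357 for the cycle regulators (3 of 6 above) and 343 for the replication factors (5 of 14 above). The range was wide within each class, 182 to 1790 in replication factors and 167 to 1972 in cyclins with kinases.

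**Figure D2:**
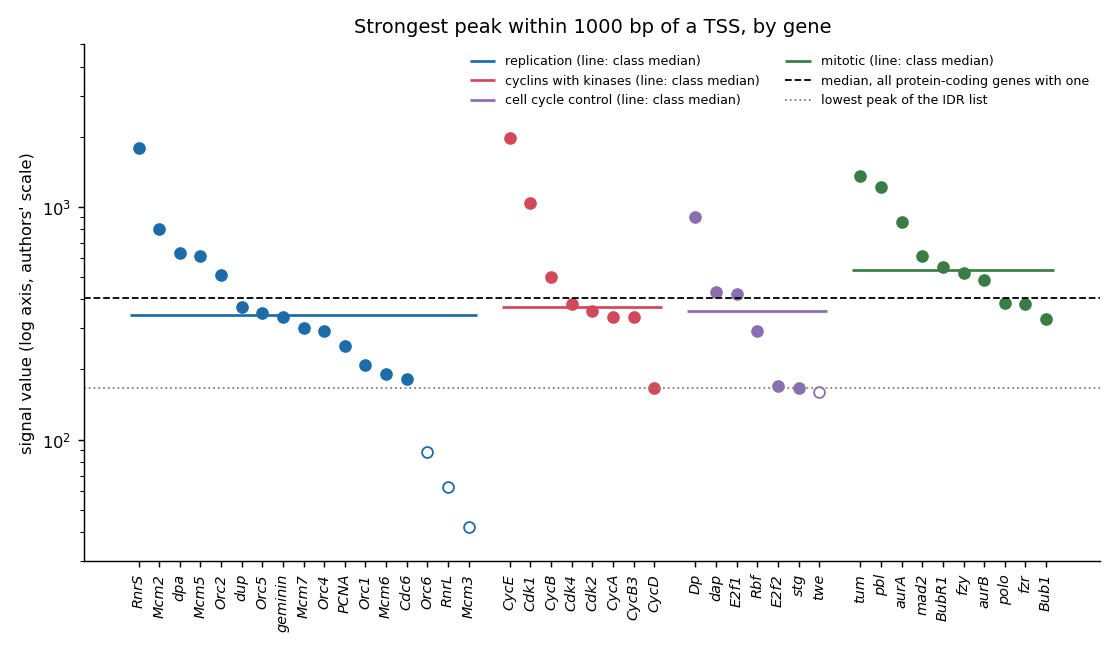
Signal value of the strongest summit within 1000 bp of a TSS on a log axis, 1 point per gene, ordered by value within each class. Filled points are IDR peaks and open points are peaks of the pooled list only, coloured lines are the median of the filled points of a class, the dashed line is the median of all protein-coding genes (407) and the dotted line the weakest IDR peak (166). CycE and RnrS stand highest, and Orc6, RnrL and Mcm3 lie well below the dotted line.

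Among the subunits of the MCM helicase the values spread widely. Mcm2 had the strongest, a signal value of 801 in the pooled data (223 in replicate 2 and 567 in replicate 3), 213 bp upstream of its TSS. Its summit also lay 306 bp from the TSS of RPA1, the large subunit of the single-strand binding protein RPA, so that a single peak lay near both replication genes. dpa, the fly Mcm4, had 632 (216 in replicate 2 and 425 in replicate 3) and Mcm5 had 613 (270 in replicate 2 and 336 in replicate 3). Both shared the peak with a divergent neighbour, didum for dpa and Art1 for Mcm5. Mcm7 stood at 302 with no other coding TSS nearby, and Mcm6 at 192, shared with CG3198.

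Mcm3 had the weakest peak of the complex. Its only peak within 1000 bp of the TSS had a signal value of 42.3 and rank 25840 of the 30000 pooled peaks. The −log10 q-value of that peak was 0.289, and neither replicate list held a peak there. With the distance set to 2000 bp, Mcm3 gained an IDR summit. Within 1000 bp, the helicase subunits, which act together in 1 ring, thus spanned values of 42.3 to 801.

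The origin recognition subunits were of middling or low strength. Orc2 had 507 (194 in replicate 2 and 312 in replicate 3), with a summit 197 bp upstream of its TSS and a weaker one at the TSS, and shared the stronger with Kots. Orc5 had 349, in a promoter shared with Arpc1, with its own TSS 53 bp from the summit and that of Arpc1 43 bp from it. Orc4 had 292, shared with CG12849, and Orc1 had 208, unshared. Orc6 had 88.9 in the pooled list, with rank 14736 and a −log10 q-value of 1.67, and ranks of 13778 in replicate 2 and 17415 in replicate 3.

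Of the licensing factors, dup and geminin each had a pair of summits near a TSS. dup had 373 and 368 there, the stronger one nearer to SRPK, and its strongest peak of all, 586, lay in an intron 1808 bp downstream of the nearest TSS. geminin had 337 in its 5' UTR, 39 bp upstream of an internal TSS and 886 bp from the TSS of sced. Cdc6 had 182, with ranks of 6713 in replicate 2 and 10405 in replicate 3.

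The subunits of ribonucleotide reductase, the enzyme that makes deoxynucleotides, stood at opposite ends. RnrS, the small subunit, had the highest value of the replication factors, 1790 (588 in replicate 2 and 1204 in replicate 3), ranked 247 in the pooled list, 268 in replicate 2 and 243 in replicate 3. Its summit lay 219 bp upstream of the TSS and 396 bp from that of CG34231. RnrL, the large subunit, had 62.7 in the pooled list (rank 19004, −log10 q-value 0.80) and a peak in replicate 2 (rank 16727) but none in replicate 3. PCNA, the sliding clamp of DNA polymerases, had 253, 79 bp upstream of its TSS, with plu, which is needed for the early embryonic divisions, 722 bp away.

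CycE, the cyclin that drives entry into S phase with Cdk2, carried the strongest summit of all 42 genes. Its signal value was 1972 (698 in replicate 2 and 1272 in replicate 3), with rank 202 in the pooled list, 191 in replicate 2 and 218 in replicate 3. It lay in an intron, 497 bp upstream of an internal TSS, with no other coding TSS within 1000 bp, and with those of the noncoding genes lncRNA:CR44974 and asRNA:CR44866. A weak second IDR summit (179) lay 5034 bp downstream of the nearest TSS, also in an intron.

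The cyclins of mitosis were lower, with CycA and CycB3 nearly equal. CycB had 500 (200 in replicate 2 and 273 in replicate 3), CycA 337 (141 in replicate 2 and 205 in replicate 3) and CycB3 336 (143 in replicate 2 and 185 in replicate 3). The summit of CycA lay 2 bp downstream of its TSS and that of CycB3 53 bp upstream, both unshared, while CycB shared its peak with stl. CycD, the partner of Cdk4, stood at the edge of the IDR list with 167 and rank 9230, 451 bp upstream of its TSS and 743 bp from that of Lrp4. Its replicate ranks were 4935 in replicate 2 and 8777 in replicate 3, with summits at 197 bp and −17 bp from the pooled summit in the direction of transcription.

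Of the kinases, Cdk1, which drives mitosis, had the strongest peak. Its value was 1035 (325 in replicate 2 and 700 in replicate 3), in a promoter shared with mRpS7, a mitochondrial ribosomal protein gene. The summit lay 221 bp from the TSS of Cdk1 and 179 bp from that of mRpS7. Cdk4 had 382, placed 587 bp upstream, and Cdk2 had 358, placed 35 bp upstream, neither with another coding TSS near. The noncoding entries mir-995 and CR42786 start within 1000 bp of the summit of Cdk2, as do 2 transcript entries without a symbol. Cdk4 had 2 further IDR summits within the gene, 191 and 200.

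The Cdc25 phosphatases, which activate Cdk1, lay at the threshold. stg had the weakest IDR peak of the 42 genes, 167 at rank 9250, 10 bp downstream of a TSS (85.4 in replicate 2 and 75.8 in replicate 3). twe, with 159 at rank 9577 of the pooled list and a −log10 q-value of 3.58, fell just outside, with a peak in replicate 2 at rank 7959 and none in replicate 3. The peak of twe was shared with CG4935. dap, the inhibitor of Cyclin E with Cdk2, had 431 (150 in replicate 2 and 310 in replicate 3) at 346 bp upstream.

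Dp and E2f1, which encode the E2F heterodimer, had many summits each. Dp had 4 near its TSSs, with signal values of 904, 857, 462 and 277, the strongest in an intron 433 bp downstream of a TSS (364 in replicate 2 and 555 in replicate 3). E2f1, the activating E2F, had 8 IDR summits: 424 and 317 near TSSs and 742, 684, 504, 484, 259 and 176 in its introns further off. The strongest summits near a TSS lay within 1000 bp of the noncoding genes asRNA:CR46055 in E2f1 and lncRNA:CR43918 in Dp. The 684 and 259 summits were close neighbours of the kind described below. E2f2, the repressing E2F, had 169, in a 5' UTR with the TSS of Mpp6 256 bp from the summit, and Rbf had 291 at 54 bp upstream.

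**Figure D3:**
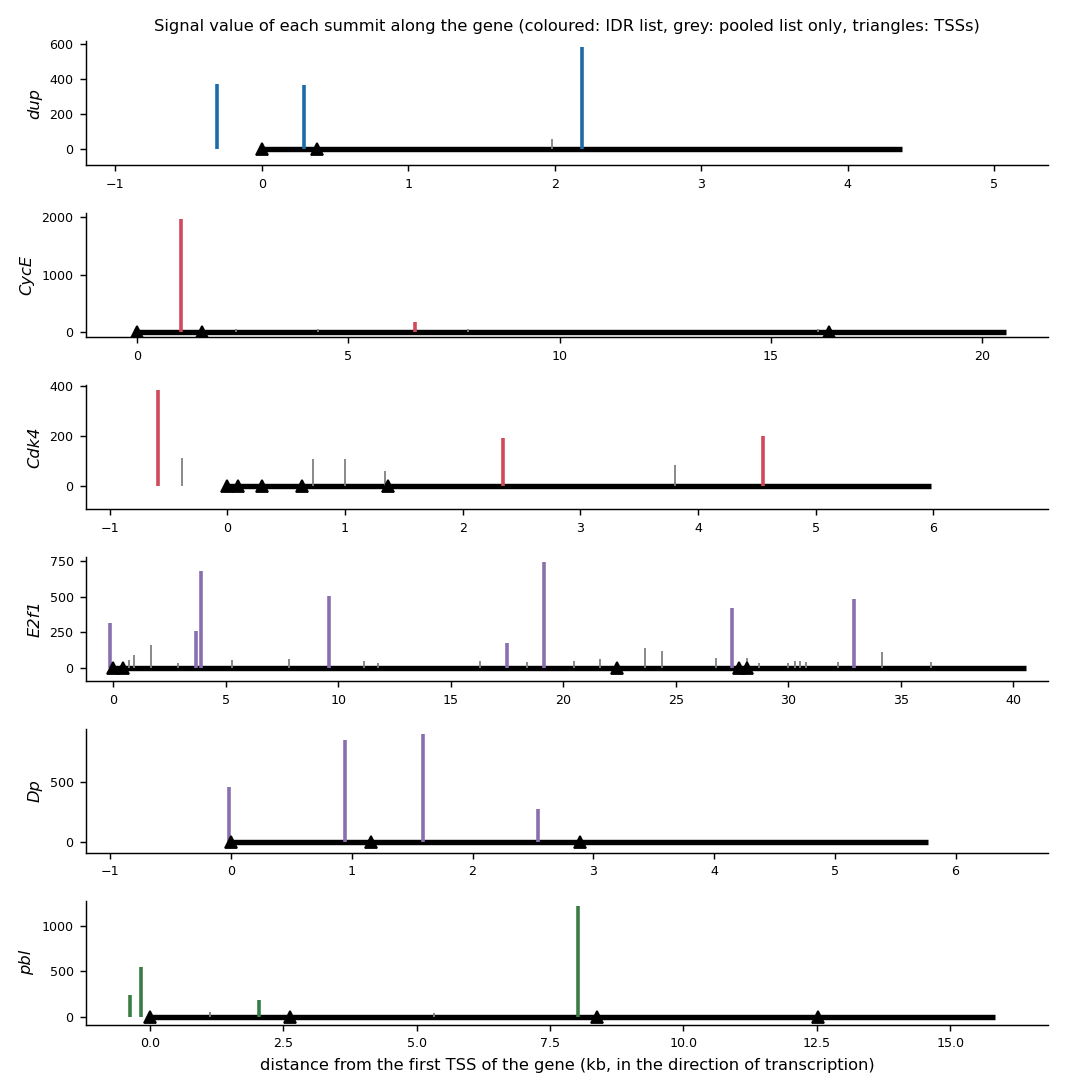
Signal value of each summit (vertical axis, linear) along 6 genes (horizontal axis, kb from the first TSS in the direction of transcription). Coloured bars are IDR summits, grey bars summits of the pooled list only, black bars the gene and triangles its TSSs. E2f1 has 8 IDR summits spread over its 40568 bp, while CycE has 1 tall summit of 1972.

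The mitotic regulators had the highest median of the classes, which was not so of other mitotic genes, described last. The cytokinesis genes tum and pbl led the class. tum had 1359 (354 in replicate 2 and 1003 in replicate 3), 88 bp upstream of its TSS and 175 bp from that of Uba3. It was also the gene whose ranks differed most between replicates, 809 in replicate 2 and 379 in replicate 3. pbl had 1214 (424 in replicate 2 and 796 in replicate 3) in an intron 357 bp upstream of an internal TSS, with ranks of 571 in replicate 2 and 594 in replicate 3, and 3 weaker summits near other TSSs (550, 240 and 184).

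Of the mitotic kinases, aurA had 859 (293 in replicate 2 and 569 in replicate 3), shared with CG3281. aurB, the kinase of the chromosomal passenger complex, had 483, 233 bp from its own TSS and 209 bp from that of Stam. polo had 387, unshared. The anaphase-promoting complex activator fzy, the fly Cdc20, had 519, 194 bp from its own TSS and 36 bp from that of cni. fzr, the fly Cdh1, had 383 at 400 bp upstream, unshared.

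Of the spindle checkpoint genes, mad2 and BubR1 stood above the all-gene median and Bub1 below it. mad2 had 615 (262 in replicate 2 and 351 in replicate 3), BubR1 553 (178 in replicate 2 and 369 in replicate 3) and Bub1 328 (109 in replicate 2 and 225 in replicate 3). mad2 and BubR1 were unshared, at 81 bp and 128 bp upstream. Bub1 shared its peak, which lay 202 bp from its own TSS, with Nin (115 bp).

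The 38 genes with an IDR peak had similar ranks in both replicates, which the IDR threshold itself favours. Of the members outside it, RnrL and twe had a peak in replicate 2 but none in replicate 3, and Mcm3 had none in either. Orc6 had ranks of 13778 in replicate 2 and 17415 in replicate 3. Each of the 38 peaks was overlapped by a peak in both replicates, with ranks of 191 to 11605 in replicate 2 and 218 to 11258 in replicate 3. The ranks differed by a median of 1.31-fold, and 37 of 38 genes were within 2-fold, the exception being tum at 2.13-fold. The rank was better in replicate 2 for 20 genes and in replicate 3 for 18. Spearman's rho of the signal values was 0.89 over the 38 genes, which all share the same pair of libraries. Summits were 31 bp apart in the median between the replicates, and within 50 bp for 29 genes. The strongest overlapping peak was taken, so a matched summit can be a different one. It stood at −264 bp from the pooled summit for Mcm6 in replicate 2 and at 262 bp for E2f2 in replicate 3.

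**Figure D4:**
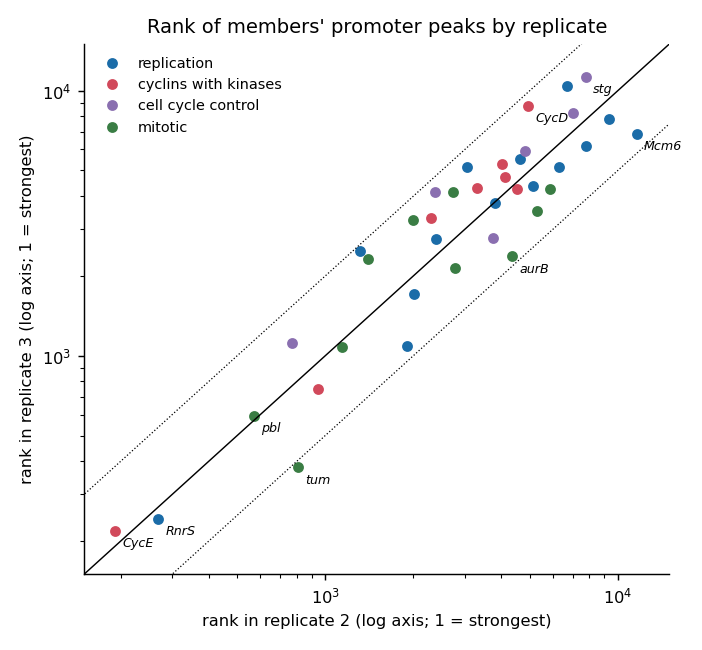
Rank of the peak at each of the 38 promoters in replicate 3 (vertical, log axis) against replicate 2 (horizontal, log axis), where 1 is the strongest peak. The solid line is equal rank and the dotted lines a 2-fold difference. tum is the 1 point outside the dotted lines, and CycE and RnrS lead in both replicates.

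Summits lay just upstream of TSSs, as in the rest of the genome. The median position of the strongest summit was 120 bp upstream of the nearest TSS of the gene for the 38 members and 129 bp upstream for all genes with one. It was upstream for 33 of the 38 (86.8%), against 86.4% of all such genes, and downstream for dpa, CycA, stg, E2f2 and Dp. It was within 250 bp for 29 of the 38, against 71.1% of all such genes. The 9 beyond were dup, CycD, CycE, Cdk4, dap, E2f1, Dp, fzr and pbl, of which 7 had no other coding TSS within 1000 bp. For 20 of the 38 genes another coding TSS lay within 1000 bp of the summit. For 6 of them (Orc5, dup, Cdk1, fzy, aurB and Bub1) that TSS was nearer than their own. A shared summit cannot be given to either gene. These counts were not computed over all genes. By the head-to-head measure above, 21 of the 38 had a divergent neighbour, as did 3690 of all 6122 genes with an IDR summit near a TSS.

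**Figure D5:**
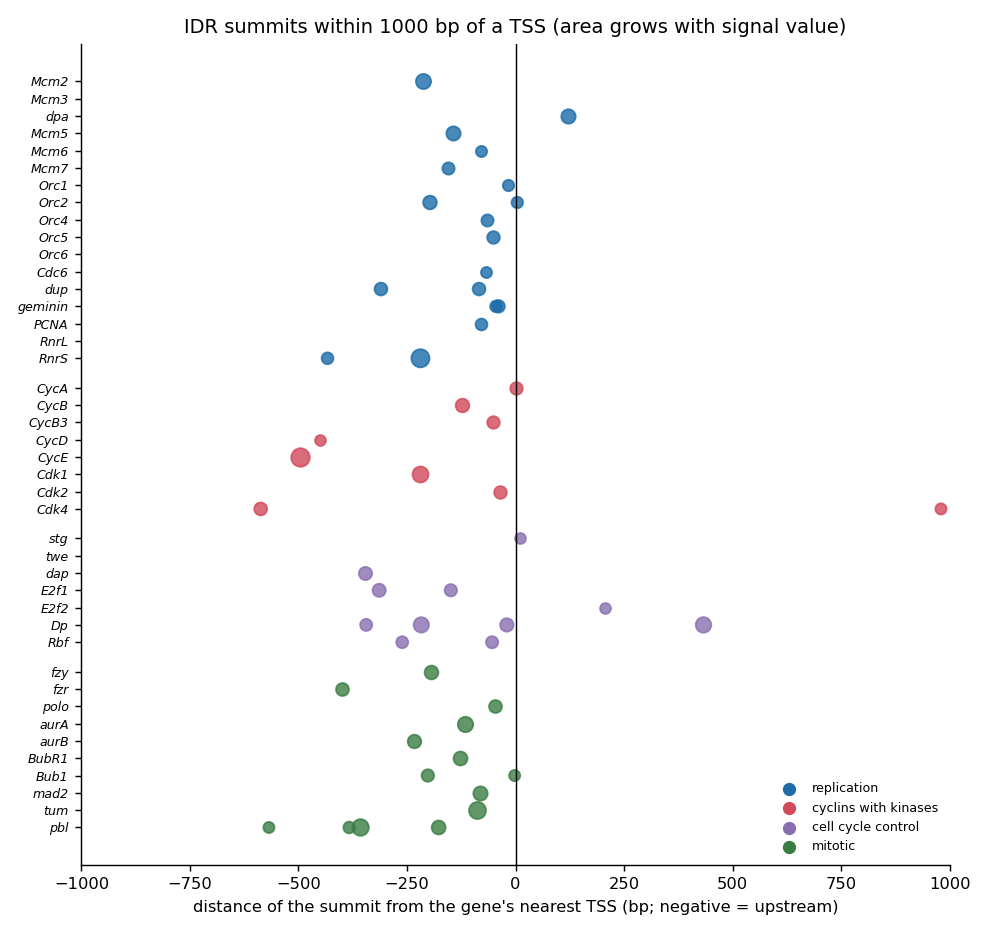
Every IDR summit within 1000 bp of a TSS of the 42 genes, at its distance from the nearest TSS of that gene (horizontal, bp, negative upstream); 1 row per gene, marker area rising with signal value. Most markers lie within 250 bp upstream, the rows of Mcm3, Orc6, RnrL and twe are empty, and CycE and Dp have strong summits further off.

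Several genes had more than 1 IDR summit near a TSS, 10 of the 42 (23.8%), against 9.21% of all genes. Among genes with at least 1 the shares were closer, 10 of 38 (26.3%) against 21% of all such genes. They were Orc2, dup, geminin, RnrS, Cdk4, E2f1, Dp, Rbf, Bub1 and pbl. In 6 of them (Orc2, geminin, RnrS, Rbf, Bub1 and pbl) a pair of summits lay 190 to 220 bp apart. Over the whole IDR list 486 of the 559 neighbouring summits within 400 bp of each other had that spacing, and none was under 199 bp. Whether such a pair is a pair of binding regions or 1 wide region was not tested.

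Summits inside the genes, more than 1000 bp from any TSS, were near the share of all genes in the IDR list. dup, CycE, Cdk4 and E2f1 had one, 4 of 42 (9.52%), against 8.93% of all genes. Of the 4 genes of 10000 bp or longer, CycE and E2f1 had one and fzr and pbl had none, against 46.5% of all genes of that length. In the pooled list 12 of 42 (28.6%) had one, against 19% of all genes.

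The words of core promoters were found at some of these summits. Within 100 bp on either side of the strongest summit, TATCGATA stood in 6 of 38 windows (15.8%: Orc2, Orc5, PCNA, CycA, Cdk2 and mad2), against 10.9% of the 4204 different windows of all genes. GGTCACAC stood in 6 (15.8%: Orc5, CycB, CycB3, Rbf, fzr and tum), against 7.78%. CGATA, the core word of the insulator protein BEAF-32, which is part of TATCGATA, stood in 20 (52.6%), against 43.7%. TTTGAA, the word known in mammals as the cell cycle genes homology region, stood in 18 (47.4%), against 34.7%, and the E-box CACGTG in 1 (Orc2), against 2.12%. Both strands were searched, and the words other than TATCGATA were chosen after earlier steps.

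Genes with TATCGATA at the summit had no higher signal values. The median was 353 for the 6 with it and 405 for the 32 without it, and 344 and 402 over the windows of all genes. The GC content of the windows averaged 34.9% ± 9.26 (SD, n = 38) for the members and 35% ± 7.74 (SD, n = 4204) for all genes. It fell with signal value, from the 17.4% of CycE, with Spearman's rho of −0.51 over the 38 windows and −0.29 over the 4204, all of which come from the same pool of libraries. stg and CycB3, of 50.2% and 53.2%, had signal values of 167 and 336. The part of base composition in the signal was not tested.

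E2F words lay in the promoters of many replication genes. TTTCGCGC, TTTGGCGC, TTTCCCGC or TTTGCCGC on either strand stood within 250 bp upstream to 50 bp downstream of a TSS in 12 of 17 replication factors (70.6%), against 8.68% of all protein-coding genes. They stood in 2 of 8 cyclins with kinases (CycB and CycE), in 1 of 7 cycle regulators (stg) and in 0 of 10 mitotic regulators. A gene with several TSSs has several such windows. Among the windows around summits, 5 of 38 held one (13.2%: dpa, Mcm6, Orc1, Orc4 and Orc5), against 3.24% of the windows of all genes.

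The words and the summits did not coincide in most of these promoters. The 12 genes with both an IDR summit and a word held 15 words, at a median distance of 176 bp from the summit in either direction. Of the 15 words, 14 lay downstream of the summit and 5 within 100 bp of it. Over all genes with both, 59.9% of the words lay downstream. The searched window favours that side where the summit lies far upstream, as in CycE and dup. With the summit inside the searched window, 9 of 10 words in members lay downstream, against 53.7% over all genes. Mcm3, Orc6 and RnrL, the replication factors without an IDR summit, all held the word, as did Mcm2 and RnrS with the strongest. The sites are shown because the words were frequent in the replication genes, each with 10 bases on either side, on the strand of the gene, and the word, or its reverse complement, in capitals. Of the 19 words found in members, 10 are shown. The 9 not shown lie in dpa, Orc1, Orc4, Orc6, dup, RnrS and CycB. Of these, 3 (dpa, Orc1 and Orc4) are among the 5 within 100 bp of an IDR summit. The word of Mcm3 began 56 bp from its summit, which is in the pooled list only. Their dm6 positions are Mcm2 (chr3R:8264996-8265023, plus strand), Mcm3 (chrX:5323839-5323866, plus strand), Mcm5 (chr3R:10788546-10788573, plus strand), Mcm6 (chrX:6674390-6674417, plus strand), Orc5 (chr2L:13829837-13829864, plus strand), RnrL site 1 (chr2L:10327893-10327920, minus strand), RnrL site 2 (chr2L:10327924-10327951, minus strand), CycE site 1 (chr2L:15746684-15746711, minus strand), CycE site 2 (chr2L:15746707-15746734, minus strand) and stg (chr3R:29255796-29255823, minus strand). They began 36 bp downstream of the TSS in Mcm2, 32 bp in Mcm5, 13 bp in Mcm6 and 10 bp in Orc5, so that they lie in the 5' part of the transcript. In CycE they began 114 and 91 bp upstream of the internal TSS and hence 383 and 406 bp downstream of its strong summit. No match or lack of a match says whether E2F is bound.
Mcm2: tagcaaacatTTTCCCGCgcattttcgc
Mcm3: acactacgctTTTCCCGCgaaaaaactt
Mcm5: ggtaattttgGCGGCAAAatattcgcac
Mcm6: tcagaaaaagGCGCCAAAaccgagcaaa
Orc5: gagggaataaTTTGGCGCcatttcaatg
RnrL site 1: caacaatcaaTTTGCCGCctcttgtgaa
RnrL site 2: atgactttaaTTTGGCGCctttttgtgc
CycE site 1: atccgcctgtTTTGGCGCgttcctcatg
CycE site 2: tgttgcatttTTTGGCGCttcggatccg
stg: aaaagctcgcGCGCCAAAatcagtggcc

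Other genes of the same pathways also had summits more often than all genes did. Of 92 further genes listed, 90 were matched, 4 of them by a synonym, and 69 (76.7%) had an IDR summit near a TSS, against the 43.8% of all protein-coding genes given above. When a summit was given to the nearest gene only, 47 of the 90 had one, against 32.3% of all genes. The median signal value of the 69 was 398, and 59 of the 90 (65.6%) were head-to-head genes.

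Among other replication genes 20 of 29 had a summit. The strongest were chif, the activating subunit of the Cdc7 kinase (2957), PolD2, a subunit of DNA polymerase delta (2564), RPA1 (801, the peak shared with Mcm2) and dUTPase (766). The first in the list without one were Mcm10, Sld5 and Prim2. Among other cycle regulators 20 of 21 had one, led by the checkpoint kinase gene mei-41 (1597), lin-52 (1294), Rbf2 (961) and Wee1, a kinase that inhibits Cdk1 (717), and CycH had none. Among other mitotic genes 29 of 40 had one, led by the condensin subunit SMC2 and the centrosome protein gene cnn (1219 each), Cdc16 (1170) and Incenp (583). The anaphase-promoting complex genes mr, Cdc23 and ida were the first without one. The median signal value was 536 for the 10 mitotic members and 400 for these other mitotic genes, and a summit among the 4650 strongest IDR peaks was present at 90% of the mitotic members and 45% of the other mitotic genes.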

How the data were processed

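ChIP-seq of tagged Nemo in whole embryos was represented by peak lists on dm6, 2 replicates of 1 group. Column 7 of each list is the authors' signal value per peak, and column 9 is the −log10 q-value deposited by the authors. For the aligner, the peak caller and the IDR cut-off, names and settings are not given in the sources used here. The labels call the replicates biological ones. No control was analysed, and no test was run, because there is no second group.

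Genes and TSSs came from Ensembl release 115 (BDGP 6.54), and sequence from the RefSeq copy of assembly Release 6. Taking out 5889 transposable-element entries left 18277 genes, of which 13968 were protein-coding. All 42 members had the same start and end in both annotations. A replicate peak was matched when it overlapped by at least 1 bp, taking the strongest. Assignment of summits to genes was checked on simulated data. Python 3.11.15, pandas 2.3.3, numpy 2.4.6, scipy 1.17.1 and pyfaidx 0.9.0.4 were used.

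The members and lists were chosen with earlier results of these data known. All 42 members are named. Of other genes, those with a TSS within 1000 bp of a member's strongest promoter summit are named, and of each list of other pathway genes the 4 strongest and the first 3 without a summit. Alternatives were distances of 500 and 2000 bp, all pooled peaks, the 4650 strongest IDR peaks, each replicate by itself, the nearest gene only, and a shorter motif window.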

Additional observations from a re-analysis of the deposited data

How the results depend on the processing

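The count of 38 members with a summit was 37 at 500 bp (39.8% of all genes), 40 at 2000 bp (50.3%) and 33 when a summit was given to the nearest gene only (32.3%), which took it from Orc5, dup, Cdk1, fzy and aurB. At 2000 bp, Mcm3 and Orc6 were gained. Leaving out each replicate gave 36 to 37 members, 12 to 13 replication factors, 8 to 8 cyclins and kinases, 5 to 7 cycle regulators, 10 to 10 mitotic regulators, 67 to 75 other pathway genes, 3 to 5 members with a summit in the gene body and 6 to 7 with a DRE. The share of all genes with a summit near a TSS was then 42.3% without replicate 2 and 44.7% without replicate 3. With the 4650 strongest IDR peaks, 8 replication factors (47.1%), 3 cycle regulators (42.9%) and 39 other pathway genes (43.3%) were left, against 27.5% of all genes. In the gene body, 2 members with a summit were left. The share of all genes in the gene body is not given for this list or for each replicate, so those counts have no comparison. Nor is the share of all windows with a DRE given for each replicate, so those DRE counts have none either. With all pooled peaks, 12 members (28.6%) had one in the gene body, against 19% of all genes. The median signal value of 385 became 387 at 500 bp, 427 at 2000 bp, 378 with all pooled peaks and 507 with the 4650 strongest. The median of all genes is not given at these settings, so these values cannot be set against the 407 of all genes. The members' median was not computed by replicate, whose scales differ. Of 57 alternative values, 5 counts moved by over 1.5 times, 4 of them with the 4650 strongest IDR peaks and 1 with all pooled peaks. No paired analysis was possible because there is 1 group. Mcm3, Orc6, RnrL and twe lacked an IDR summit near a TSS but each had a peak in the pooled list. Read depth is unknown, so the lack of an IDR summit does not show that Nemo was absent there.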
